A study of Mus musculus with 2 samples.

Results

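Protein kinase A is the main receptor for cyclic AMP in the cell. In its resting form a dimer of regulatory subunits holds a pair of catalytic subunits inactive, and cyclic AMP that binds the regulatory subunits sets the catalytic ones free to phosphorylate their targets. In the cortex this kinase acts downstream of dopamine, noradrenaline and adenosine receptors, in synaptic plasticity and in transcription that follows neuronal activity. Described here are its catalytic genes Prkaca and Prkacb, its regulatory genes Prkar1a and Prkar1b (type I) and Prkar2a and Prkar2b (type II), and Pkia, which encodes a small protein inhibitor of the free catalytic subunit. They were chosen by gene name in the deposited transcript tables, and all 7 had reads in both libraries, out of 18907 annotated genes with a read.

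Long reads had been made from total RNA of adult B6NCrl mice aged 6 months, taken from the left cerebral cortex, and each such read can follow a transcript through all of its exons. The labels give 1 group with 2 replicates and no treatment, so that there is no condition to compare. A separate tissue sample was used for each library, but both carry the same donor record, and nothing says that they came from separate animals. The spread between the replicates may therefore be technical, and the tests below compare 2 libraries with counting noise only. Replicate 1 held 1306424 reads and replicate 2 held 1304133. A single read was worth 0.765 CPM (counts per 1e+06 reads of the library) in replicate 1 and 0.767 in replicate 2, and 0 reads would allow up to 3 counts, or 2.30 CPM. Intervals and this limit cover counting error alone.

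The cortex label was checked against 33 markers fixed for 8 cell types and regions, and all 33 had reads. Markers of excitatory neurons summed to 954 CPM in replicate 1 and 732 CPM in replicate 2, those of inhibitory neurons to 380 and 477 CPM, those of astrocytes to 462 and 464 CPM, and those of oligodendrocytes to 4311 and 3973 CPM. Markers of the striatum, the neighbouring region, summed to 109 and 84.3 CPM, and those of the choroid plexus to 62.0 and 39.9 CPM. A label field calls the tissue male and a further one leaves the sex uncollected. Neither library held a read of 4 genes of the Y chromosome (Kdm5d, Uty, Eif2s3y and Ddx3y), and Xist had 29 and 27 reads, which goes against the male label. Which cells the reads of the kinase genes came from was not tested, and in such bulk tissue fewer cells of a type and less RNA per cell cannot be told apart.

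Together the members had 2322 reads in replicate 1 and 1871 in replicate 2, spread over 130 and 124 transcript models. Over all reads, the type I regulatory genes were the most abundant, the catalytic genes came next, and the type II genes and Pkia were lowest. In replicate 2 Prkaca left this order on known transcripts (1 read, 0.767 CPM) and on spliced models (10 reads). It lay below Pkia there, which had 36 known and 40 spliced reads. Prkar2b had 2 and 14, and these counts are too few to order it against Prkaca. Prkar1b, a form known from neurons, had 986 reads (replicate 1) and 647 reads (replicate 2), or 755 and 496 CPM (625 ± 183, SD, n = 2). Prkar1a, a widely expressed form, had 635 and 685 reads, or 486 and 525 CPM (506 ± 27.7). Prkar1b was the higher of the pair in replicate 1 and Prkar1a in replicate 2, so their ranges overlapped.

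Prkacb had 223 and 306 reads, or 171 and 235 CPM (203 ± 45.2, SD, n = 2). Prkaca had 331 and 89 reads, or 253 and 68.2 CPM (161 ± 131). The order of the catalytic genes turned with the library, Prkaca leading in replicate 1 and Prkacb in replicate 2.

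Pkia had 45 and 78 reads, or 34.4 and 59.8 CPM (47.1 ± 17.9, SD, n = 2). Prkar2b, the type II form of neurons and fat cells, had 64 and 30 reads, or 49.0 and 23.0 CPM (36.0 ± 18.4). Prkar2a had 38 and 36 reads, or 29.1 and 27.6 CPM (28.3 ± 1.05). The range of Prkar2b overlapped those of Pkia and Prkar2a, Pkia lay above Prkar2a in both libraries, and all 3 stood far above the limit of 0 reads.

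**Figure D1:**
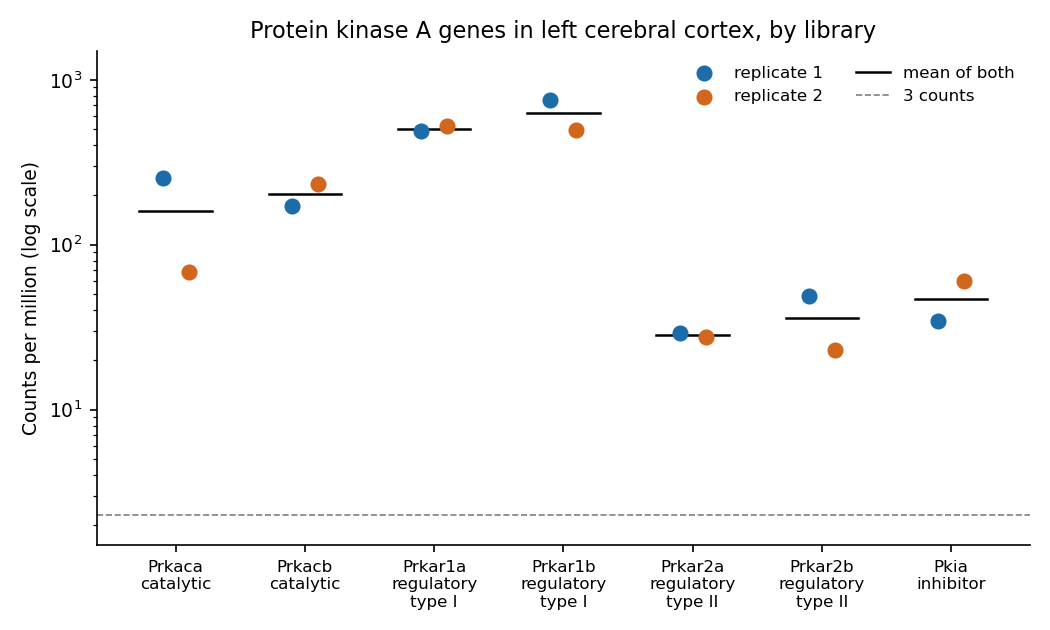
Level of each gene in CPM on a log axis, 1 point per library, with the mean of both as a bar and 3 counts as a dashed line. The type I regulatory genes lie between 486 and 755 CPM, and Pkia and the type II genes between 23.0 and 59.8 CPM.

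Among all genes with a read, mean CPM ranked Prkar1b 209th, Prkar1a 290th, Prkacb 863rd, Prkaca 1110th, Pkia 3597th, Prkar2b 4429th and Prkar2a 5206th. A long read counts a transcript whatever its length, so CPM was the main scale between genes. Divided by the length of the leading transcript in kb, the mean levels were 237 CPM per kb for Prkar1b, 151 for Prkar1a, 70.7 for Prkaca, 49.9 for Prkacb, 13.0 for Pkia, 10.7 for Prkar2b and 5.71 for Prkar2a. Only Prkaca and Prkacb changed places on this scale, and Prkar1b then lay above Prkar1a in both libraries. On either scale Prkar1a lay above both catalytic genes in both libraries.

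In reads, the catalytic genes made up 24.3% of catalytic and regulatory reads in replicate 1 and 22.0% in replicate 2 (95% Clopper-Pearson interval 20.1 to 24.0 in replicate 2). Type I genes made up 94.1% of the regulatory reads in replicate 1 (interval 92.9 to 95.1) and 95.3% in replicate 2 (94.0 to 96.3). Over all reads those sums were close in the libraries, while the members within a class were not. Prkacb held 40.3% of catalytic reads in replicate 1 (36.1 to 44.5) and 77.5% in replicate 2 (73.0 to 81.5). Prkar1b held 60.8% of type I reads (58.4 to 63.2) and 48.6% (45.9 to 51.3). Prkar2b held 62.7% of type II reads (52.6 to 72.1) and 45.5% (33.1 to 58.2). Pkia made up 7.51% of the sum of Pkia and catalytic reads in replicate 1 (5.53 to 9.92) and 16.5% in replicate 2 (13.3 to 20.1). Divided by length, the catalytic share was 25.4% in replicate 1 and 19.7% in replicate 2, and the type I share 95.5% and 96.5%. On known transcripts they were 24.0% and 20.1%, and 94.0% and 99.5%. All of these are shares of reads, scaled by length where stated, and protein was not measured. Except on known transcripts, the reads include unspliced ones.

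The regulatory subunits and the inhibitor block the catalytic site with a short stretch that resembles a substrate. In type I subunits and in the inhibitor the residue in the place of the phosphorylated one cannot be phosphorylated, whereas type II subunits carry a serine there and are themselves phosphorylated by the catalytic subunit. The coding sequence of this stretch is given for each of these members from the leading GENCODE M21 transcript, 5′ to 3′ on the coding strand, with the 5 codons of the site in capitals. The fourth capital codon is the acceptor position.
Prkar1a: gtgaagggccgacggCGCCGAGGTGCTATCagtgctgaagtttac
Prkar1b: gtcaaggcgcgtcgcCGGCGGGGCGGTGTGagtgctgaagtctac
Prkar2a: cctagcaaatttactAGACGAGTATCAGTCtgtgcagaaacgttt
Prkar2b: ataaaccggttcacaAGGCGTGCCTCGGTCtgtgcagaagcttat
Pkia: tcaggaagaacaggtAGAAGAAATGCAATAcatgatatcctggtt

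A search of each coding sequence for 2 arginine codons, any codon, then alanine, glycine or serine, then isoleucine or valine found 1 match per gene. The acceptor codon was GCT (alanine) at codon 99 of Prkar1a, GGT (glycine) at codon 99 of Prkar1b, TCA (serine) at codon 97 of Prkar2a, TCG (serine) at codon 112 of Prkar2b and GCA (alanine) at codon 22 of Pkia. The stretches lie at chr11:109660092-109660136 (plus strand) in Prkar1a, chr5:139108517-139108561 (minus) in Prkar1b and chr3:7437404-7437448 (plus) in Pkia, each within an exon, on mm10. Those of Prkar2a, chr9:108714281-108716879 (plus), and Prkar2b, chr12:31993767-32038649 (minus), each span an intron.

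Reads on models that covered this site showed how many transcripts were followed into the 5′ part of the coding sequence. There were 777 such reads of Prkar1b in replicate 1 and 414 in replicate 2, and 508 and 520 of Prkar1a. Pkia had 30 and 40. Prkar2b had 53 and 4 and Prkar2a had 17 and 1, so that replicate 2 held 5 reads over the serine codon of type II subunits in all.

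The libraries were compared gene by gene to see which members differed by more than counting noise (two-sided exact binomial test on library totals, Benjamini-Hochberg adjustment over 11838 genes with at least 10 reads, called at an adjusted p under 0.05 and at least 2-fold). Prkaca and Prkar2b were lower in replicate 2, and no member was called higher. The 2 lower members of 7 stand beside 5.44% of all genes tested that were lower and 1.61% that were higher. By the adjusted p alone, with no limit on size, 5 of the 7 differed, beside 12.8% of all genes. The log2 ratio of replicate 2 to replicate 1 (0.5 counts added) had a median of -0.074 over the members and 0.0025 over all genes tested.

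Prkaca (ENSMUSG00000005469.10, chromosome 8, 83972993 to 83996443, plus strand) encodes the catalytic subunit alpha. Its 331 reads in replicate 1 and 89 in replicate 2 gave a log2 ratio of -1.89 (adjusted p = 1.12e-31), so that replicate 1 held 3.71 times as many on the CPM scale (95% interval 2.93 to 4.75). Prkar2b (ENSMUSG00000002997.15, chromosome 12, 31958476 to 32061296, minus strand) had a log2 ratio of -1.08 (adjusted p = 0.00716), or 2.13 times as many in replicate 1 (interval 1.36 to 3.40). Both genes thus had fewer reads in replicate 2, where the abundant Prkar1a did not.

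Prkar1b (ENSMUSG00000025855.13, chromosome 5, 139017306 to 139150001, minus strand) had a log2 ratio of -0.60 (adjusted p = 3.83e-15), short of 2-fold, at 1.52 times as many in replicate 1 (interval 1.38 to 1.68). Prkacb (ENSMUSG00000005034.15, chromosome 3, 146729574 to 146812990, minus strand) had 0.46 (adjusted p = 0.00410) and Pkia (ENSMUSG00000027499.12, chromosome 3, 7366669 to 7445366, plus strand) 0.79 (adjusted p = 0.0264), both toward more reads in replicate 2 and both short of 2-fold. Pkia did not pass the adjusted p on known transcripts (0.234) or on spliced models (0.548). Prkar1a (ENSMUSG00000020612.16, chromosome 11, 109649405 to 109669656, plus strand) had 0.11 (adjusted p = 0.453) and Prkar2a (ENSMUSG00000032601.13, chromosome 9, 108689314 to 108750436, plus strand) -0.074 (adjusted p = 1). The catalytic genes therefore stood on opposite sides of 0.

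The difference was larger in reads that matched a whole annotated transcript. Only 1 read of replicate 2 matched a known transcript of Prkaca, against 204 in replicate 1, a fold of 204 (interval 36.1 to 8082) and a log2 ratio of -7.09. Prkar2b had 43 and 2 such reads (log2 ratio -4.12), and Prkar2a, whose totals were nearly equal, had 17 and 1 (-3.54). These 3 genes were called lower on known transcripts, beside 10.4% of 7765 genes tested. Prkar1b had 589 and 310 known reads (-0.92, adjusted p = 4.52e-19, exact binomial test), Prkar1a 357 and 340 (-0.068), Prkacb 113 and 163 (0.53) and Pkia 22 and 36 (0.70), and none of these 4 was called. On this count the median of all genes moved to -0.10. Known transcripts were 57.9% of the members' reads in replicate 1 and 45.6% in replicate 2, beside 68.2% and 63.1% in the whole libraries.

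Shares of unspliced reads differed between the libraries in the same genes. Spliced reads made up 76.5% of the whole library in replicate 1 and 70.2% in replicate 2. The unspliced share was thus larger in replicate 2 over all reads too. Of the reads of Prkaca, 32.9% in replicate 1 were unspliced (109 reads, 95% interval 27.9 to 38.3) and 88.8% in replicate 2 (79 reads, 80.3 to 94.5). Of those of Prkar2a, 52.6% and 88.9% were unspliced (20 and 32 reads), and of those of Prkar2b, 9.38% and 53.3% (6 and 16 reads). For Prkar1b they were 13.8% and 27.7%, and for Pkia 33.3% and 48.7%. Prkar1a (15.3% and 17.7%) and Prkacb (39.5% and 34.0%) kept similar shares in both libraries. Counted on spliced reads alone, Prkaca had 222 and 10 reads (log2 ratio -4.40), Prkar2b 58 and 14 and Prkar2a 18 and 4 (-2.04), and the same 3 genes were called lower, beside 8.28% of genes tested. Spliced reads of Prkar1a numbered 538 and 564.

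**Figure D2:**
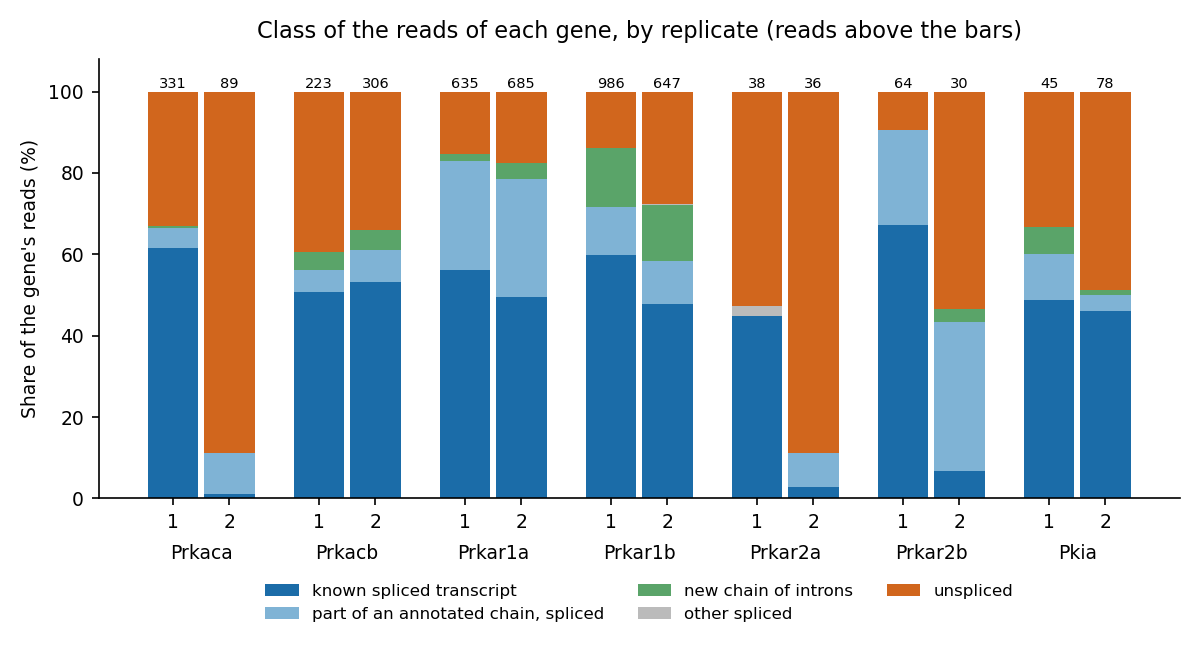
Share of each gene's reads in each class, as stacked bars for replicate 1 and replicate 2, with the number of reads above each bar. Known spliced transcripts take 61.6% of the reads of Prkaca in replicate 1 and 1.12% in replicate 2, and those of Prkar1a 56.2% and 49.6%.

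Nearly all unspliced reads lay over the last exon of their gene. All 109 and 79 of Prkaca, all 97 and 121 of Prkar1a, and all of Prkar2a and Prkar2b did so. Prkaca also had the most reads on the opposite strand, in a single unspliced antisense model per library over its last exon (83995292 to 83996443), with 183 reads in replicate 1 and 216 in replicate 2. They outnumber the unspliced reads on the strand of the gene in both libraries. With them the locus had 514 and 305 reads, which is short of 2-fold, and no test was run on these sums. How the strand of an unspliced read was set is not given in the sources used here. The other members had at most 12 opposite-strand reads in a library.

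Of the unspliced reads of Prkacb, 83 in replicate 1 and 99 in replicate 2 were on a model of 294 bases at 146729574 to 146729867, which made up 37.2% and 32.4% of the reads of the gene. That model overlaps the last exon of the leading transcript Prkacb-203 by 3 bases and lies whole within the longer last exon of Prkacb-202. In Prkar2a the leading unspliced model ended at 108749503 in both libraries, 933 bases before the annotated end of the gene, with 19 and 23 reads. In Prkar1b the leading unspliced model reached 1033 bases past the annotated end in replicate 1 and stopped at it in replicate 2.

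Along the leading transcript, models that reached the 5′ end held 61.9% of Prkaca reads in replicate 1 and 1.12% in replicate 2. Models that covered its middle held 67.1% and 100%. The middle lies within the unspliced model of Prkaca in replicate 2 (1152 bases) but outside that in replicate 1 (850 bases). For Prkar2b the share at the 5′ end was 75.0% and 6.67%, and for Prkar2a 44.7% and 2.78%. The shares of Prkar1b (62.6% and 51.0%), Pkia (57.8% and 47.4%), Prkar1a (57.0% and 52.4%) and Prkacb (39.0% and 36.6%) were closer. For Prkar1b, Prkar1a and Prkacb the share at the 5′ end leaves out reads that began in another first exon. The reach of known models is that of the annotation, so the true ends of their reads were not seen.

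**Figure D3:**
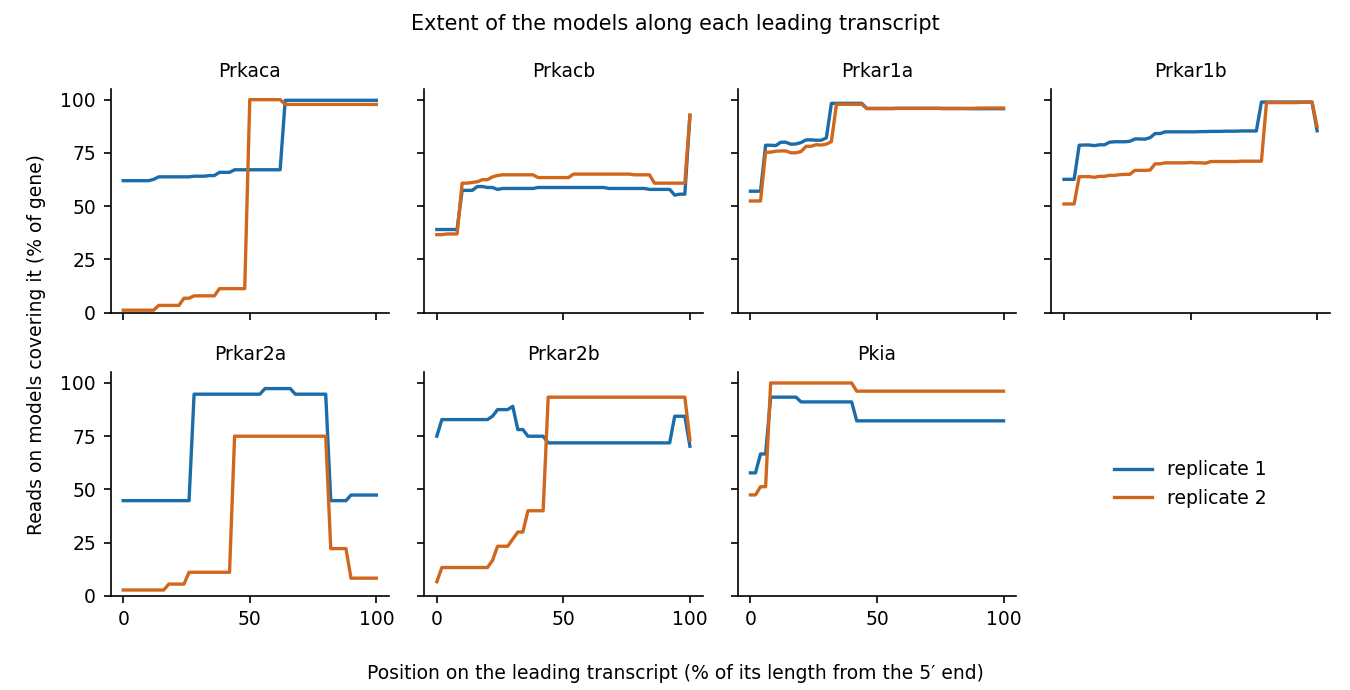
Share of the gene's reads on models that cover each position of the leading transcript, from its 5′ end at 0% to its 3′ end at 100% of its length, with 1 line per library. The lines of Prkaca, Prkar2a and Prkar2b part at the 5′ end, where replicate 2 lies at 1.12%, 2.78% and 6.67%.

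The 3 genes called lower on known transcripts in replicate 2 carry GC-rich sequence near their 5′ end. The richest 100 bases of the leading transcript were 85% G or C in Prkaca (bases 34 to 133), 87% in Prkar2a (bases 1 to 100) and 83% in Prkar2b (bases 54 to 153). Prkar1b, whose known reads were fewer in replicate 2 but short of 2-fold, also reached 85% (bases 1 to 100). Prkar1a reached 75%, Pkia 68% and Prkacb 64%. For all genes tested, the calls on all reads were used, by which Prkar2a was not called. Their median peak was 73% among those not called, 83% among those lower in replicate 2 and 69% among those higher. Across 11832 genes the Spearman rho between this peak and the log2 ratio of all reads was -0.25, a description over genes that share their library. A GC-rich first exon did not go with fewer reads in every case. The first exon of Prkacb-202 is 73.4% G or C, its transcript peaks at 83%, and its known reads numbered 16 in replicate 1 and 31 in replicate 2. Whether base composition had a part in the differences was not tested.

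**Figure D4:**
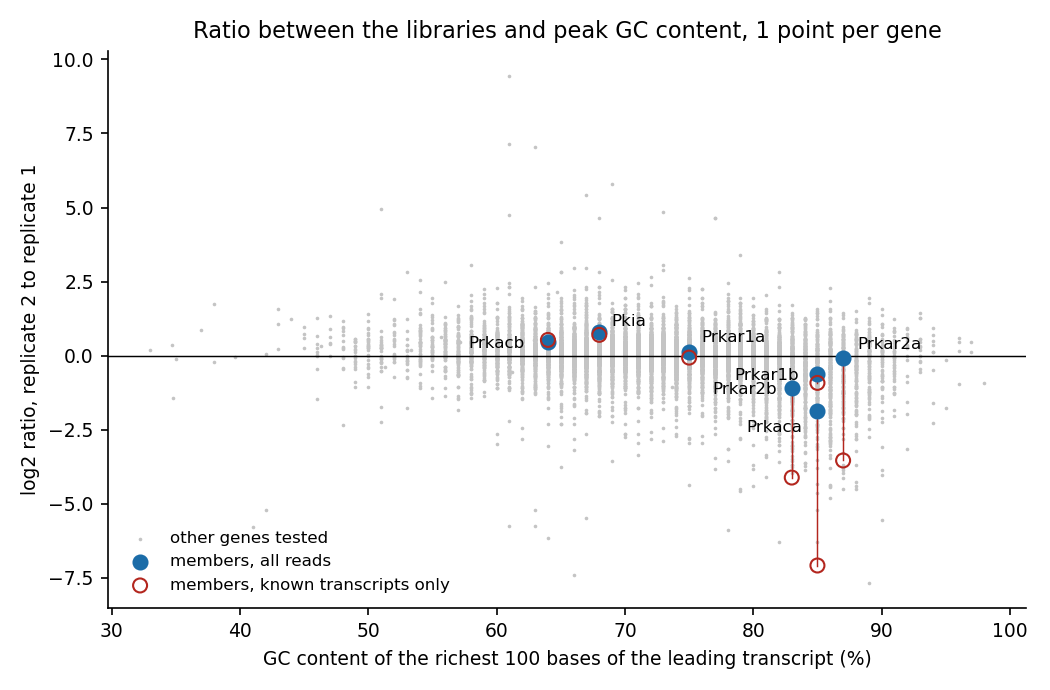
log2 ratio of replicate 2 to replicate 1 against the GC content of the richest 100 bases of the leading transcript, 1 point per gene, with all reads of the members as filled circles and their known transcripts alone as open circles. Members at 83% to 87% lie at or below 0, from -0.074 for Prkar2a to -1.89 for Prkaca, and drop to -7.09 on known transcripts.

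Prkacb and Prkar1a start from several promoters, which give the catalytic subunit beta its different amino ends and Prkar1a different untranslated starts. First exons were counted from reads whose first splice donor is that of an annotated transcript. Promoter stretches upstream of 4 exons in use are shown, since they differ in base composition and in a known cyclic AMP response element. They come from the RefSeq promoter table (GRCm38.p6, the same assembly as mm10), which has rows for 6 of the 7 members, end before the nearest annotated exon of the gene, and are written 5′ to 3′ on the strand of the gene. Capitals mark half-sites of the cyclic AMP response element, whose letters are TGACG on either strand, and the full element, TGACGTCA.
Prkacb-203: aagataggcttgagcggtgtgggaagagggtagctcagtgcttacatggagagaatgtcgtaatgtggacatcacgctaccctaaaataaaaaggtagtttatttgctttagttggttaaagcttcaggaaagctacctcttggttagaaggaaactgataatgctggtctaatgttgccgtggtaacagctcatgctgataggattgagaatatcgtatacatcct
Prkacb-202: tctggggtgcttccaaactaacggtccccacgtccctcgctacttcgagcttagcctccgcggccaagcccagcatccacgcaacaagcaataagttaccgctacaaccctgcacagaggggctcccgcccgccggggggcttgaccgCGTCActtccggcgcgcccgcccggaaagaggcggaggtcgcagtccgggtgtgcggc
Prkar1a-201: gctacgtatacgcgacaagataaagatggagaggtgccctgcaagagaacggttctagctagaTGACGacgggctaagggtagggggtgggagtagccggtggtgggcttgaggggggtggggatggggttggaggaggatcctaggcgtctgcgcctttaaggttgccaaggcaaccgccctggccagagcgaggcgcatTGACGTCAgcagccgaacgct
Prkar1a-202: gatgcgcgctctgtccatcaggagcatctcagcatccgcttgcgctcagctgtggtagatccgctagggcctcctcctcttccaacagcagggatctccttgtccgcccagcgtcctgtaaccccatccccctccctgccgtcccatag

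Reads of Prkacb used all 3 of its main first exons in both libraries. The exon of Prkacb-203 (chromosome 3, 146769934 to 146770261) led with 87 of 124 reads in replicate 1 and 112 of 178 in replicate 2, or 70.2% (95% interval 61.3 to 78.0) and 62.9% (55.4 to 70.0). The exon of Prkacb-202 (146812638 to 146812960) had 20 and 37 reads, or 16.1% and 20.8%. The exon of Prkacb-204 (146770516 to 146770781) had 15 and 25 reads, or 12.1% and 14.0%. The share of the leading exon did not pass the test between the libraries (Fisher's exact test, two-sided, adjusted p = 0.933 over 3148 genes, of which 3.24% were called). Prkacb-205, whose first exon is also an inner exon of other transcripts, had 2 and 4 reads, and a donor at 146770395, outside the annotation, had 2 and 2.

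Each of the 3 exons carries its own start codon and joins the same 1007 coding bases. The coding part of each first exon is shown in capitals, followed by 12 of the shared bases, because it is all that differs between the encoded subunits.
Prkacb-202: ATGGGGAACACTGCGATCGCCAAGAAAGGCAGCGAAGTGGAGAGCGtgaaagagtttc
Prkacb-203: ATGAATGtgaaagagtttc
Prkacb-204: ATGGGCTTGTtgaaagagtttc
The coding part is 46 bases in Prkacb-202, 10 in Prkacb-204 and 7 in Prkacb-203, at chr3:146812638-146812683, chr3:146770516-146770525 and chr3:146769934-146769940 (minus strand, mm10). The whole coding sequences are 1053, 1017 and 1014 bases long. On whole known transcripts the shares were alike: Prkacb-203 had 80 of 113 reads in replicate 1 and 106 of 163 in replicate 2, or 70.8% and 65.0% (Fisher's exact test, adjusted p = 1 over 2572 genes, 1.75% of which were called). Prkacb-202 had 16 and 31 reads and Prkacb-204 had 15 and 22. The longest amino end, that of Prkacb-202, was thus carried by 14.2% and 19.0% of these reads.

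The promoter stretches of these exons differ. Over the 250 bases before the RefSeq start, the window of Prkacb-203 (printed part chr3:146770262-146770488, minus strand) is 42.0% G or C and holds no cyclic AMP response element or half-site, no GC box (letters GGGCGG) and no TATA box (letters TATAAA) on either strand. The window of Prkacb-202 (printed part chr3:146812991-146813196, minus strand) is 69.2% G or C and holds 3 GC boxes and 1 half-site, which ends 97 bases before the start. Among 32851 promoter windows of this length in the table, 1.55% hold the full element, 17.8% a half-site (on either strand, those within the full element included), 32.7% a GC box and 12.4% a TATA box. A match is a description of the letters and shows no binding.

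Prkar1a started mostly from the exon of Prkar1a-201 (chromosome 11, 109650921 to 109651073), with 360 of 498 reads in replicate 1 and 358 of 513 in replicate 2, or 72.3% (68.1 to 76.2) and 69.8% (65.6 to 73.7). An upstream exon, that of Prkar1a-202 (109650575 to 109650624), had 119 and 137 reads, or 23.9% and 26.7%. The exon shared by Prkar1a-203 and Prkar1a-204 (109649405 to 109649527) had 12 and 15 reads, and that of Prkar1a-205, also an inner exon, had 7 and 3. The leading share did not pass the test (adjusted p = 1, Fisher's exact test). The 5-exon model Prkar1a-202 itself had 0 reads. Most of the reads from its first exon, 115 and 133, went on through 11 exons to the end of the gene and were deposited as partial matches of Prkar1a-203. That transcript has the same exon as an inner one, so a read that starts there can be a transcript of its own or a shortened Prkar1a-203, and those cannot be told apart. Whole Prkar1a-203 had 4 and 4 reads, and a new chain that joined the exon of Prkar1a-203 straight to the shared exons had 6 and 11.

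Coding sequence is the same 1143 bases in Prkar1a-201 and Prkar1a-203, and their first exons hold no coding base. The window before the RefSeq start of Prkar1a-201 (printed part chr11:109650699-109650920, plus strand) holds the full element TGACGTCA, 1 of 12 windows by the members' used first exons to do so. A further half-site ends 182 bases before that start, and the same window holds 1 GC box. The window of Prkar1a-202 (printed part chr11:109650292-109650440, plus strand) holds 2 GC boxes and no half-site. It is 64.0% G or C, against 61.6% for Prkar1a-201.

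Prkar1b started from the exon of Prkar1b-201 (chromosome 5, 139129644 to 139129759) in 617 of 748 reads in replicate 1 and 330 of 403 in replicate 2, or 82.5% (79.6 to 85.1) and 81.9% (77.8 to 85.5; adjusted p = 1, Fisher's exact test). The exon of Prkar1b-204 (139129968 to 139130159) had 74 and 53 reads, or 9.89% and 13.2%. Of these, 70 and 51 ran through 11 exons in a chain that no annotated transcript has, with every splice site annotated and 9 of its 10 introns shared with Prkar1b-201. It was the most abundant new chain of any member. The exon of Prkar1b-210, also an inner exon, had 50 and 16 reads, the one shared by Prkar1b-205 and Prkar1b-211 had 6 and 2, and that of Prkar1b-206 had 1 and 2.

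A first exon of 159 bases at 139150535 to 139150693 had 22 and 12 reads of Prkar1b and is in no GENCODE M21 transcript of the gene. It begins 692 bases upstream of the annotated start of the gene, within an exon of the non-coding Gm15672 (139150321 to 139150693, same strand), whose own reads numbered 0 and 1. RefSeq has a start of Prkar1b 10 bases away. In 20 and 10 of these reads the exon joined the coding part through an intron outside the annotation and went on through the other 9 introns of Prkar1b-201. A chain with a shifted splice site inside the gene had 3 and 1 reads.

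**Figure D5:**
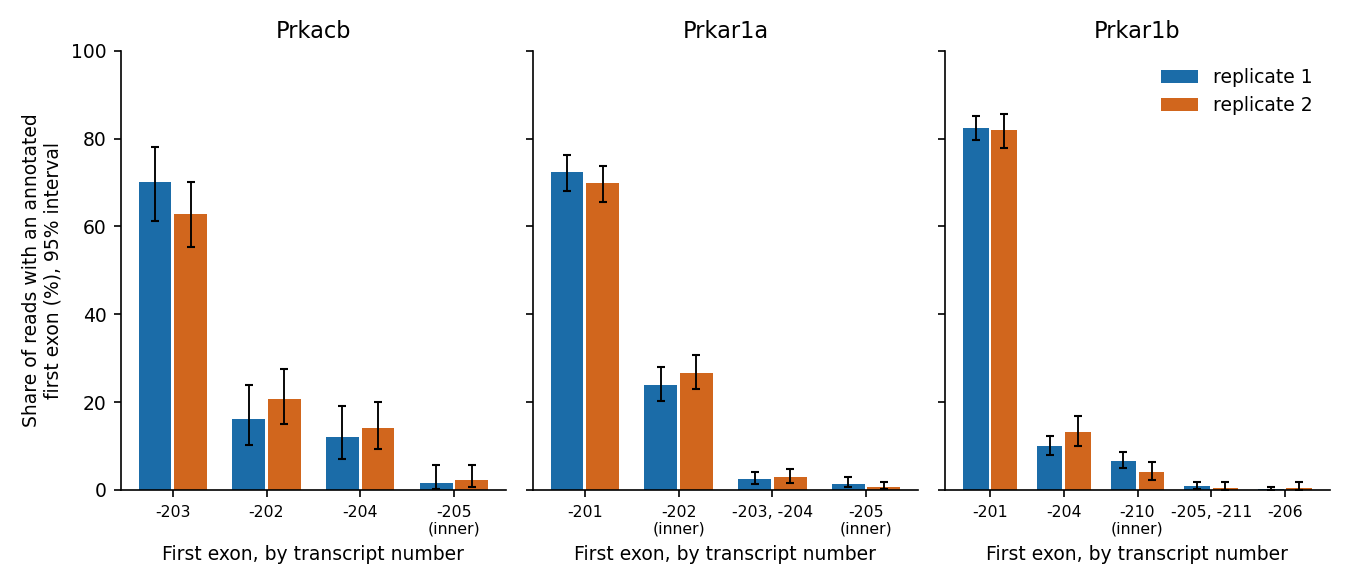
Share of reads from each annotated first exon of Prkacb, Prkar1a and Prkar1b, by transcript number, with 1 bar per library and 95% Clopper-Pearson intervals. Leading exons hold 70.2% and 62.9%, 72.3% and 69.8%, and 82.5% and 81.9% in replicate 1 and replicate 2, and the intervals of the libraries overlap for each of them.

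The remaining members showed 1 first exon each. All reads with an annotated first exon came from Prkaca-201 (204 and 1), from the exon shared by Prkar2a-201 and Prkar2a-206 (17 and 1), from the exon shared by Prkar2b-201 and Prkar2b-202 (53 and 4) or from the exon shared by Pkia-201 and Pkia-202 (26 and 37). Prkaca-202, the other annotated form of Prkaca, had 0 of 204 known reads in replicate 1, which allows up to 3 counts. Within known reads, Prkar2b-202 had 41 of 43 and 2 of 2, and Prkar2b-201 had 2 and 0. Pkia-201 had all 22 and 36.

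The internal exons that could be tested, all of Prkacb, Prkar1a or Prkar1b, were spliced alike in nearly every read. The test took exons with 20 or more informative reads in each library and with both including and skipping reads over the libraries. Exons that no read skipped were left out of it. Prkaca, Prkar2a and Prkar2b had too few spliced reads in replicate 2 (10, 4 and 14) to enter it. This left 2 exons of Prkacb, 9 of Prkar1a and 9 of Prkar1b, and their inclusion was 98.9% or higher in both libraries. None lay between 10% and 90%, and none was called (Fisher's exact test; 0.177% of 9626 exons were). Prkacb had 3 new chains that both libraries shared, each with at most 3 reads in a library. Prkar1a had 2, Prkar1b 9, and the other members 0. The near copy Prkaca-ps1 had 0 reads in both.

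The genes around the kinase were read from 8 lists of 91 genes, of which 86 had reads and 68 were tested. In replicate 2, 5 were lower and 2 higher, beside 5.44% and 1.61% of all genes, and their median log2 ratio was 0.065 beside 0.0025. Among G protein alpha subunits, which switch adenylyl cyclase on or off, 3 of 7 were lower: Gnas (1049 ± 818 CPM, SD, n = 2, log2 ratio -1.79), Gnai1 (173 ± 102, -1.28) and Gnai2 (89.6 ± 56.2, -1.37). Gnao1 had 184 ± 13.2 CPM. Among adenylyl cyclases, which make cyclic AMP, 0 of 6 were called, and Adcy1 led with 110 ± 24.0 CPM before Adcy2 (42.9 ± 5.36) and Adcy5 (41.4 ± 6.45). Of 11 receptors that raise cyclic AMP, Adora2a was higher (25.3 ± 14.1 CPM, 1.18) and Adrb1 lower (14.5 ± 18.4 CPM, -3.87), while Adcyap1r1 had 25.3 ± 4.30 and Gpr12 24.9 ± 3.76 CPM. Adrb1 had 36 reads in replicate 1 and 2 in replicate 2, where it lay under 3 counts.

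Of 11 phosphodiesterases that break cyclic AMP down, 0 were called, led by Pde1a (80.5 ± 27.2 CPM, SD, n = 2), Pde2a (69.3 ± 16.9) and Pde1b (53.6 ± 17.3). Of 16 anchoring proteins, which tie the regulatory subunits to places in the cell, only Sphkap was called, as higher (44.1 ± 21.2 CPM, 1.01). Map2, the anchor of dendrites, led them with 230 ± 62.0 CPM, before Akap9 (73.9 ± 9.12) and Akap5 (73.6 ± 6.59). Of 5 other kinase and inhibitor genes 0 were called. Among them Pkig, a further inhibitor gene, had 249 ± 47.4 CPM, above the 47.1 ± 17.9 CPM of Pkia in both libraries. Pja2, a ligase that targets regulatory subunits, had 452 ± 20.1 CPM and Pdpk1, which phosphorylates the catalytic subunit, 55.9 ± 2.24. Of 7 substrates and transcription factors 0 were called, led by Ppp1r1b (218 ± 31.2), Ppp1r1a (176 ± 7.91) and Crtc1 (54.4 ± 2.23). Of 5 other effectors of cyclic AMP, Hcn2 was lower (7.66 ± 9.74, -3.70). Rapgef4 led these effectors with 248 ± 52.9 CPM, and Rapgef3 had 10.7 ± 2.15 CPM.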

How the data were processed

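The deposited tables hold counts, whole reads given to each transcript model in each library without normalization, per the file headers, together with each model's exon number and length. Positions of models come from the authors' annotations, GENCODE M21 on mm10 with models added from each library by TALON, per the labels of the files. For the aligner and its settings, as for TALON's version, no source used here gives a name or number. Members were matched by gene name, and reads of all models given to a gene were summed and scaled to CPM by the library totals (1306424 and 1304133 reads).

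Gene totals, leading transcript shares, first exon shares and exon inclusion were tested across all genes as described with the results, with Python 3.11.15 and scipy 1.17.1 (tested on simulated data). With 1 group no replicate model could be fitted, and edgeR 4.0.16 and DESeq2 1.42.0 gave normalization factors for alternatives only. Overlaps were found with bedtools 2.31.1 and coding sequences translated with Biopython 1.88. Members, lists and tests were chosen with earlier results of these data known. Named were all members, their transcripts with at least 5% of known reads, first exons with a read, the 3 most abundant new chains found in both libraries, and per list the 3 genes of highest mean CPM and every called gene. A gene that this rule names is not reported here. First exons whose donor is in no annotated transcript of the gene are given where 2 or more reads per library had them. Reads that began in an exon annotated only as an inner one are left out of first exon shares. Unspliced and opposite-strand models were named after their values were seen.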

Additional observations from a re-analysis of the deposited data

How the results depend on the processing

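Over 9 alternatives the log2 ratio between the libraries kept its direction and its side of the joint limits (adjusted p and 2-fold) for Prkaca (-7.09 to -1.84), Prkar2b (-4.12 to -1.03), Prkar1b (-0.92 to -0.56), Prkacb (0.43 to 0.58) and Pkia (0.41 to 0.84). Prkar1a turned to -0.068 on known transcripts, and Prkar2a passed both limits only on known transcripts (-3.54) and on spliced models (-2.04). By adjusted p alone Pkia was lost on known transcripts (0.234) and on spliced models (0.548). None of the alternatives counted opposite-strand reads, with which the Prkaca locus had 514 reads in replicate 1 and 305 in replicate 2, short of 2-fold. Members called numbered 2 to 3. Genes called higher in replicate 2 numbered 117 with at least 50 reads, 77 on known transcripts and 103 on spliced models, against 191, while those called lower numbered 476, 811 and 815, against 644. First exon calls fell from 102 to 29 on known transcripts, 59 with at least 50 reads and, in an alternative chosen after seeing the data, 25 without first exons that are inner exons elsewhere. Counting all same-strand reads over annotated exons, also chosen after seeing the data, left the calls of all members as they were. Exon inclusion calls fell from 17 to 11 with at least 50 reads and 3 on known transcripts. The cause of these changes was not tested.

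Known transcripts alone gave mean levels of 78.5 CPM for Prkaca (against 161), 106 for Prkacb, 267 for Prkar1a, 344 for Prkar1b, 6.89 for Prkar2a, 17.2 for Prkar2b and 22.2 for Pkia. Spliced models gave 88.8 CPM for Prkaca, 129 for Prkacb, 422 for Prkar1a, 8.42 for Prkar2a and 26.8 for Pkia. Divided by length, the levels per kb were 70.7 for Prkaca, 49.9 for Prkacb, 151 for Prkar1a, 237 for Prkar1b, 5.71 for Prkar2a, 10.7 for Prkar2b and 13.0 for Pkia. The mean share of catalytic genes was 18.2% on spliced models, against 23.2%. That of Prkacb among catalytic genes was 67.5% on known transcripts, 66.5% on spliced models and 46.6% per length, against 58.9%. By library it was 35.6% and 99.4% on known transcripts and 37.8% and 95.3% on spliced models, so these means describe neither library. The values of replicate 2 rested on 1 known and 10 spliced reads of Prkaca. The mean share of type I genes was 96.8% on known transcripts, 96.5% on spliced models and 96.0% per length, against 94.7%. That of Prkar2b among type II genes was 69.2% on known transcripts and 77.0% on spliced models, against 54.1%. In replicate 2 it rested on only 2 known reads of Prkar2b and 1 of Prkar2a, and on 14 and 4 spliced reads. In replicate 2 Prkaca lay below Pkia and Prkar2b on known transcripts (0.767, 27.6 and 1.53 CPM) and on spliced models (7.67, 30.7 and 10.7 CPM). For Prkaca and Prkar2b these are 1 and 2 known reads and 10 and 14 spliced reads, too few to order the pair. Without 1 replicate each level is that of the other library, as given with the results. No paired analysis was possible because the libraries form 1 group. In replicate 2 at most 4 spliced reads of Prkar2a and 10 of Prkaca limit what can be said of their transcripts.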
